A study of Mus musculus with 15 samples.

Results

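Cul5 and the other genes of the mouse cullin family were followed in liver RNA of mice with chemically induced hepatocellular carcinoma. The family was taken as the 8 cullins on the array (Cul1, Cul2, Cul3, Cul4a, Cul4b, Cul5, Cul7 and Cul9) and the RING subunits Rbx1 and Rnf7. All probes that are not controls and carry one of these gene symbols were used, which gave 20 of 55681 probes and 10 of 22032 gene symbols. Cul5 had been picked from the study's list of genes restored after Gas1 delivery, which was drawn from all 3 comparisons of these same livers. That list required a difference between T and C and between G and T, and similar levels in G and C. The Cul5 values are therefore given as a description without a test. The other 9 genes were chosen by family membership.

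All samples came from livers of CD1 male mice, and the sample records give an age of 10 weeks. The study's methods give a similar age for the mice that were obtained. Its results section instead describes weekly deliveries and sacrifice at a much greater age, when tumours had developed. The records do not settle this difference. Group C had received saline, with empty plasmid by hydrodynamic gene delivery. Group T had received the carcinogen diethylnitrosamine (DEN) as infants, with empty plasmid later. Group G had received DEN and then a plasmid for Gas1, a membrane-anchored protein known for arresting growth, with an HA tag and under the CAG promoter. The records give 50 μg of plasmid for a delivery, in which a large volume is injected fast into a vein, so that plasmid enters a fraction of the liver cells. RNA was taken from liver tissue as a whole, in which fewer cells of a type and less RNA per cell cannot be told apart.

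Cullins are the scaffolds of a large class of ubiquitin ligases. At its C-terminal end a cullin binds a RING protein that recruits the ubiquitin-conjugating enzyme, and at its N-terminal end it binds an adaptor with an exchangeable substrate receptor. Attachment of the small protein NEDD8 to the cullin activates the ligase, the COP9 signalosome removes NEDD8 again, and CAND1 helps to exchange receptors. CUL5 works with the RING protein RNF7, with elongins B and C as adaptors, and with receptors that carry a SOCS box, among them the SOCS proteins, which damp cytokine signalling.

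The livers were measured on 15 arrays (4 C, 5 T and 6 G) with 1 dye, and both slides carried arrays of every group. By their RNA codes, arrays 3 and 4 of C came from a shared extract and so did arrays 4 and 5 of T, and each such pair was averaged into 1 mouse. The comparisons thus rest on 13 RNA samples, 3 of C, 4 of T and 6 of G, called mice here although the labels do not state that each came from its own animal. Between 15707 and 29765 of the 59305 spots on an array that are not controls were well above background, and the array of mouse 2 of group C had the fewest. Levels are log2 signals after background correction and quantile normalization, and a difference of 1 unit is a doubling of the signal. Gas1 itself, the delivered gene, had a mean log2 level of 6.53 in both C and T and of 6.61 in G (limma, adjusted p = 0.765 for G against T), and it was not established whether its probe lies within the plasmid's insert. Over all genes, limma called 2.37% between T and C, 0.132% between G and T and 0.427% between G and C at an adjusted p of 0.05.

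The probes are oligonucleotides of 60 bases, and their first 30 bases are shown for the genes on which the comparisons below turn, since Cul5, Cul7 and Cul4a each rest on 1 probe and Cul9 on a pair. They are given 5′ to 3′ in lower case.
Cul5 probe A_51_P501107: gcacacttgagaagacacgtgtgccagtgt
Cul7 probe A_51_P293753: ggggttgggggtaggtgaggctggggcttt
Cul4a probe A_51_P435251: accataataaaatcgggcctggttttatag
Cul9 probe A_55_P2056958: actggaagagaactctttacagacccagga
Cul9 probe A_55_P2099980: atttgatgaggaactagacaatgatagctt
The files place the Cul5 probe at chr9:53425327-53425386 on the minus strand of mm9, and 27 of its 60 bases are G or C. The Cul7 probe lies at chr17:46801251-46801309 on the plus strand, and the Cul9 probes lie on the minus strand of the same chromosome at chr17:46656800-46656859 and chr17:46637712-46637771. Cul7 and Cul9 encode closely related large cullins. The Cul4a probe lies at chr8:13147326-13147385 on the plus strand. Exon and UTR annotation of mm9 was not used here.

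Cul5 had its lowest signals in group C, its highest in group T, and values between them in group G. In group C the log2 level was 6.31 in mouse 1, 6.45 in mouse 2 and 6.46 in mouse 3. In group T it was 6.83, 6.76, 6.78 and 6.85 in mice 1 to 4. In group G the lowest mouse had 6.56, the median was 6.62 and the highest mouse had 6.77. The 4 mice of group T all exceeded the highest value of group C, and so did the 6 mice of group G. Groups T and G overlapped, since mouse 1 of group G, at 6.77, lay above mouse 2 of group T, at 6.76, while the other 5 mice of group G lay below all of group T.

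**Figure D1:**
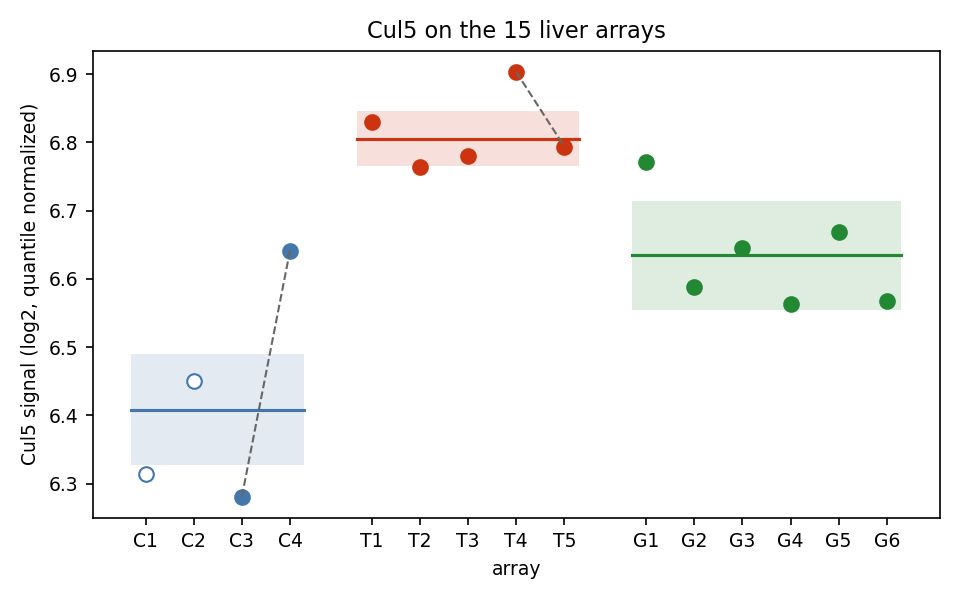
Cul5 signal on each of the 15 arrays (log2, quantile normalized; the axis does not start at 0). Points are arrays, filled where the Cul5 spot was well above background and open where it was not, dashed lines join arrays of the same RNA, and the line and band of each group give the mean and SD over its mice (3, 4 and 6). Arrays of group C lie lowest, those of group T highest, and arrays 3 and 4 of group C are far apart although they share their RNA.

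Over the 3 mice of C the mean Cul5 level was 6.41 ± 0.08 (SD, n = 3). It was 6.81 ± 0.04 over the 4 mice of T (SD, n = 4) and 6.63 ± 0.08 over the 6 mice of G (SD, n = 6). Group T thus exceeded group C by 0.40 (SE 0.06) in measured signal, with 1 of the 3 mice of C well above background. Group G was 0.17 lower than group T (SE 0.05) and 0.23 higher than group C (SE 0.06). These SEs come from the fit over all genes and describe a gene that was selected on the same values. Within slide 1, T exceeded C by 0.47 and G lay 0.24 below T, and within slide 2 the differences were 0.32 and -0.13 (-0.125 before rounding). Both slides held an array of the RNA of mouse 3 of group C and an array of that of mouse 4 of group T. The slides are therefore not separate sets of mice.

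The Cul5 probe was dim. Its spot was well above background on 13 of 15 arrays, namely on all 5 of group T, on all 6 of group G and on 2 of 4 in group C. The 2 arrays of group C without such a signal were those of mice 1 and 2, which had 18354 and 15707 spots well above background. Before any normalization, the mean signal of the Cul5 spot was 45.0 to 76.5 units in group C, 77.4 to 108 in group T and 59.5 to 98.9 in group G. The background-subtracted signal that the scanner software gives was 9.94 and 9.44 on the arrays of mice 1 and 2 of group C and 31.7 and 35.0 on the arrays of mouse 3. It lay between 37.6 and 74.5 in group T and between 18.2 and 60.8 in group G. On this scale too, the highest array of group C stayed below the lowest of group T, while group G overlapped both.

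Arrays 3 and 4 of group C, which share their RNA, read 6.28 and 6.64 for Cul5. That gap of 0.36 is close to the whole difference between groups T and C. Over 8279 genes detected on all arrays and present on this pair, the median gap was 0.0902, and 2.07% of genes had a gap at least as large as that of Cul5. The pair of arrays in group T read 6.90 and 6.79, a gap of 0.11 that 35.6% of 8386 genes reached. With array 3 alone for this mouse Cul5 differed by 0.46 between T and C, and with array 4 alone by 0.34. Array 4 of group C, at 6.64, lay below all 5 arrays of group T but above 3 of the 6 arrays of group G.

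Cul5 kept its order of group C below G below T under 32 alternatives on the same arrays, and the size of the difference moved. Several of these could not move it. Cul5 has 1 probe without flagged spots, so probe averaging, flagged spots and the filter for dim genes left its differences unchanged. A change of test left them unchanged too, and 13 of the alternatives each left out 1 mouse. The T against C difference lay between 0.28 with cyclic loess in place of quantile normalization and 0.94 with the signal processed by the scanner software. The G against T difference lay between -0.37 and -0.16. A smaller offset in the background correction gave a T against C difference of 0.61. The offset is added to every spot, so it shrinks the ratios of dim probes.

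**Figure D2:**
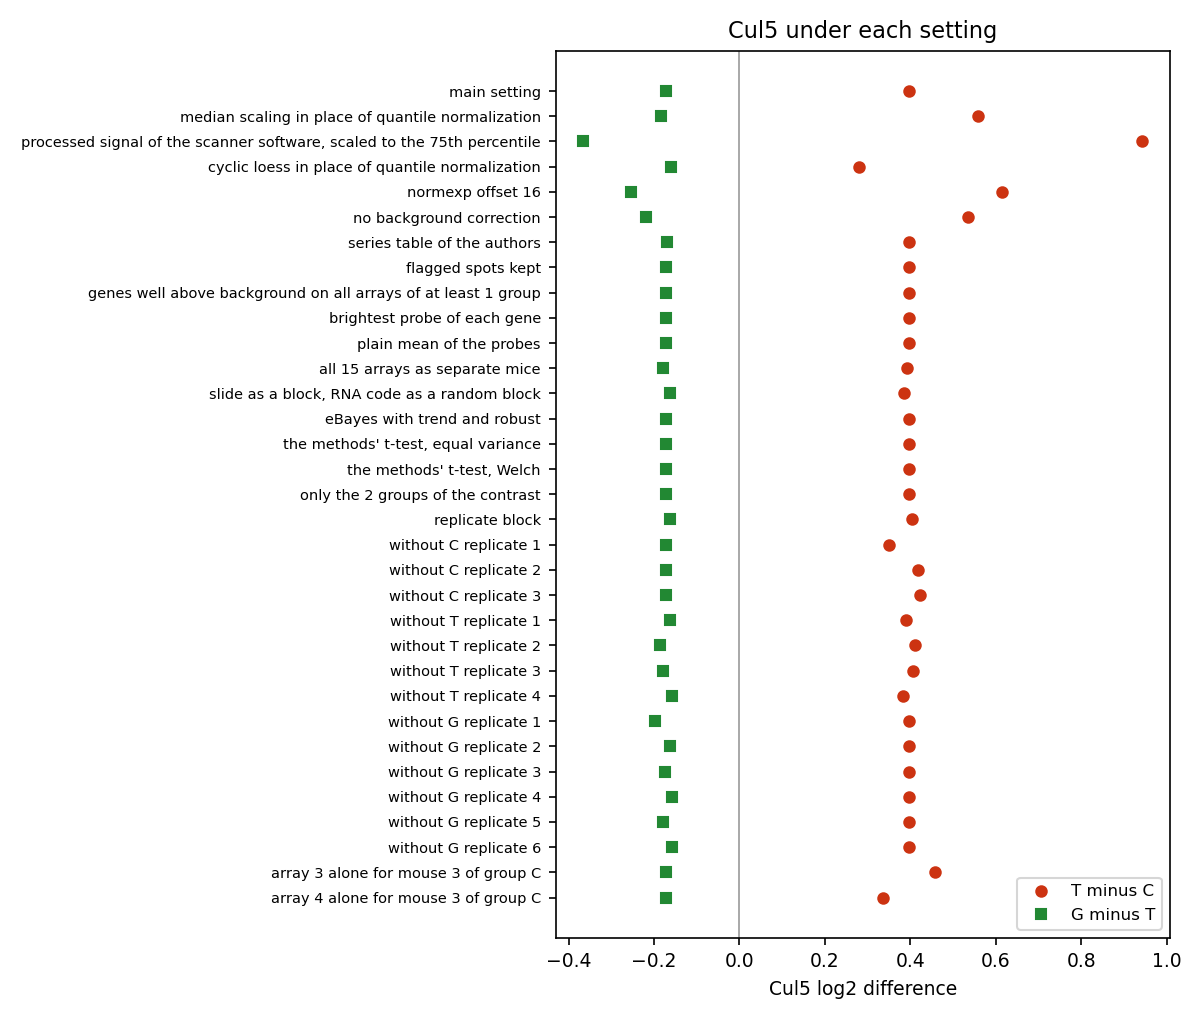
Log2 difference of Cul5 for T minus C (circles) and G minus T (squares) in the main setting and under 32 alternatives, 1 per line; the vertical line marks 0. Circles lie between 0.28 and 0.94 and squares between -0.37 and -0.16, and no point crosses 0.

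With quantile normalization, none of the other 9 family genes passed the test in any comparison. Between T and C, 0 of 9 were called by limma at an adjusted p of 0.05, where 2.37% of all genes were. At an unadjusted p under 0.05 there were 3 of 9 (Cul4a, Cul7 and Cul9), where 20.2% of all genes were. Between G and T, 0 of 9 were called against 0.132% of all genes, and 1 of 9 (Cul7) had an unadjusted p under 0.05, against 10.8%. Between G and C, 0 of 9 were called against 0.427%, and 1 of 9 (Cul9) had an unadjusted p under 0.05, against 13.3%. The groups did not overlap for 1 of 9 genes between T and C (Cul9), where 19.1% of all genes had no overlap, and for 0 of 9 in either comparison of group G, where 3.10% had none against T and 5.95% had none against C. The median difference of the 9 genes between T and C was -0.0045, beside 0.0053 over all genes, with 4 positive and 5 negative.

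**Figure D3:**
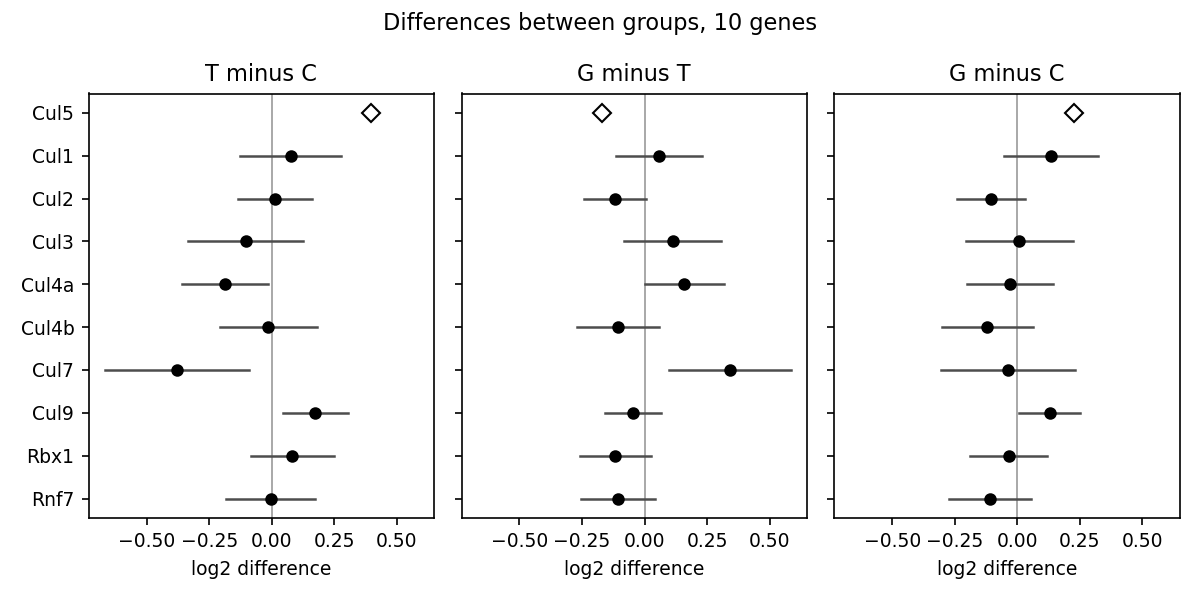
Log2 differences between group means for the 10 genes, with T minus C on the left, G minus T in the middle and G minus C on the right. Filled points have 95% intervals from the limma fit, and the open diamond is Cul5, which was selected on these contrasts and is drawn without an interval. The largest differences of the 9 other genes are those of Cul7, at -0.38 and 0.34. The T minus C signs of the 5 negative genes depend on the scaling, since all 9 were positive with median scaling.

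Cul7, the scaffold of a ligase that contains the F box protein FBXW8, differed most among the other cullins. Its log2 level was 9.44, 9.46 and 9.04 in the mice of group C and 8.73, 8.999, 9.11 and 8.91 in those of group T. In group G the lowest mouse had 8.95, the median was 9.31 and the highest had 9.45. Mice 1 and 2 of group C lay above all of group T, while mouse 3 of group C lay below mouse 3 of group T, so that the groups overlapped. Mouse 4 of group G, at 8.95, was the only one of that group within the range of group T. The difference was -0.38 for T against C (SE 0.13, limma adjusted p = 0.140) and 0.34 for G against T (SE 0.11, adjusted p = 0.277), and group G differed from group C by -0.04 (SE 0.12, adjusted p = 0.935). Neither passed the test, and their 95% intervals were -0.67 to -0.09 and 0.10 to 0.59. The signs were alike on both slides, with -0.34 and -0.30 for T against C and 0.29 and 0.41 for G against T. The slides share the RNA of a mouse of group C and of a mouse of group T, so they are not separate sets. Without mouse 3 of group C the T against C difference was -0.52 (adjusted p = 0.063), and with median scaling it was 0.52.

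Cul9, the p53-binding relative of Cul7, was near the background throughout. In group C neither of its probes was well above background on any of 4 arrays. At least 1 of them was so on 3 of 5 arrays in T and 4 of 6 in G. The measured log2 level was 6.05, 6.04 and 6.16 in group C and 6.31, 6.22, 6.30 and 6.21 in group T. Group G ran from 6.10 to 6.31 with a median of 6.22. The readings of group T lay above those of group C without overlap (limma adjusted p = 0.134), and group G spanned both, but this compares signals near the background. The bound for group C was 6.37, above the mean of 6.26 in group T, so no change in level can be read.

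Cul4a and Cul4b are close paralogues that bind the adaptor DDB1. Cul4a had 9.04, 8.95 and 9.05 in group C and 8.95, 8.75, 8.74 and 8.86 in group T. Its spot was marked as an outlier on array 3 of group C and on the arrays of mice 4 and 6 of group G, which left array 4 for mouse 3 of group C and 4 mice of group G, at 8.92, 9.14, 8.86 and 9.02. The T against C difference was -0.19 (SE 0.08, limma adjusted p = 0.209), mouse 1 of group T lay just above mouse 2 of group C, and group G exceeded group T by 0.16 (SE 0.07, adjusted p = 0.463). Cul4b, which is X-linked, had 7.15, 7.36 and 7.29 in group C and 7.23, 7.17, 7.34 and 7.29 in group T. Its range over group G was 6.88 to 7.29. Its T against C difference was -0.01 (95% interval -0.21 to 0.18), and that for G against T was -0.11 (95% interval -0.27 to 0.06).

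Cul1, the scaffold of the SCF ligases with F box receptors, had 7.35, 7.27 and 7.41 in group C and 7.56, 7.57, 7.23 and 7.33 in group T. The 6 values of group G lay between 7.35 and 7.64. Mice 1 and 2 of group T lay above all of group C, mouse 4 lay inside its range and mouse 3 below it. The T against C difference was 0.08 (95% interval -0.13 to 0.28) and that for G against T was 0.06 (95% interval -0.11 to 0.23). Cul3, which binds BTB proteins that are adaptor and receptor at once, had 7.44, 7.397 and 7.33 in group C and 7.25, 7.41, 7.16 and 7.31 in group T. Group G had the widest range for this gene, from 7.19 to 7.67, with mice 1 and 2 highest. The differences were -0.10 (95% interval -0.33 to 0.13) and 0.11 (95% interval -0.08 to 0.31), and within the slides the T against C difference was 0.05 and -0.19. Arrays 3 and 4 of group C also differed for Cul3, by 0.24.

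Cul2, which shares the elongin adaptors with Cul5 and carries VHL as a receptor, was read by 4 probes. Its log2 level was 7.17, 7.28 and 7.09 in group C and 7.19, 7.15, 7.19 and 7.24 in group T. The 6 values of group G lay between 6.92 and 7.16. The 6 lowest values belonged to mouse 3 of group C and to 5 mice of group G, and mouse 2 of group T at 7.15 was below mouse 3 of group G at 7.16. The T against C difference was 0.01 (95% interval -0.13 to 0.16) and that for G against T was -0.12 (SE 0.06, limma adjusted p = 0.485). The probes disagreed for T against C, with differences of 0.23, -0.25, -0.02 and 0.09, so the mean over them averages opposite signs.

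Rbx1, the RING subunit of most cullins other than CUL5, was read by 3 probes, whose mean signals of 11.40, 8.77 and 11.26 differed among themselves. It had 10.48, 10.50 and 10.43 in group C and 10.48, 10.55, 10.61 and 10.55 in group T. The 6 values of group G lay between 10.32 and 10.65. In group G, mice 1 and 2 were at 10.55 and 10.65 and the other 4 lay below all of groups C and T. The T against C difference was 0.08 (95% interval -0.08 to 0.25) and that for G against T was -0.12 (95% interval -0.26 to 0.02). Its 3 probes gave T against C differences of 0.07, 0.01 and 0.16.

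Rnf7, the RING partner of CUL5, was read by 4 probes. It had 8.72, 8.49 and 8.39 in group C and 8.53, 8.58, 8.56 and 8.42 in group T. Group G ran from 8.32 to 8.55 with a median of 8.40. Group T lay inside the range of group C, and the difference was -0.00 (-0.0045 before rounding, 95% interval -0.18 to 0.17). Group G differed from group T by -0.11 (95% interval -0.26 to 0.04). With median scaling Rnf7 was at 0.78 for T against C, outside the interval for that comparison.

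**Figure D4:**
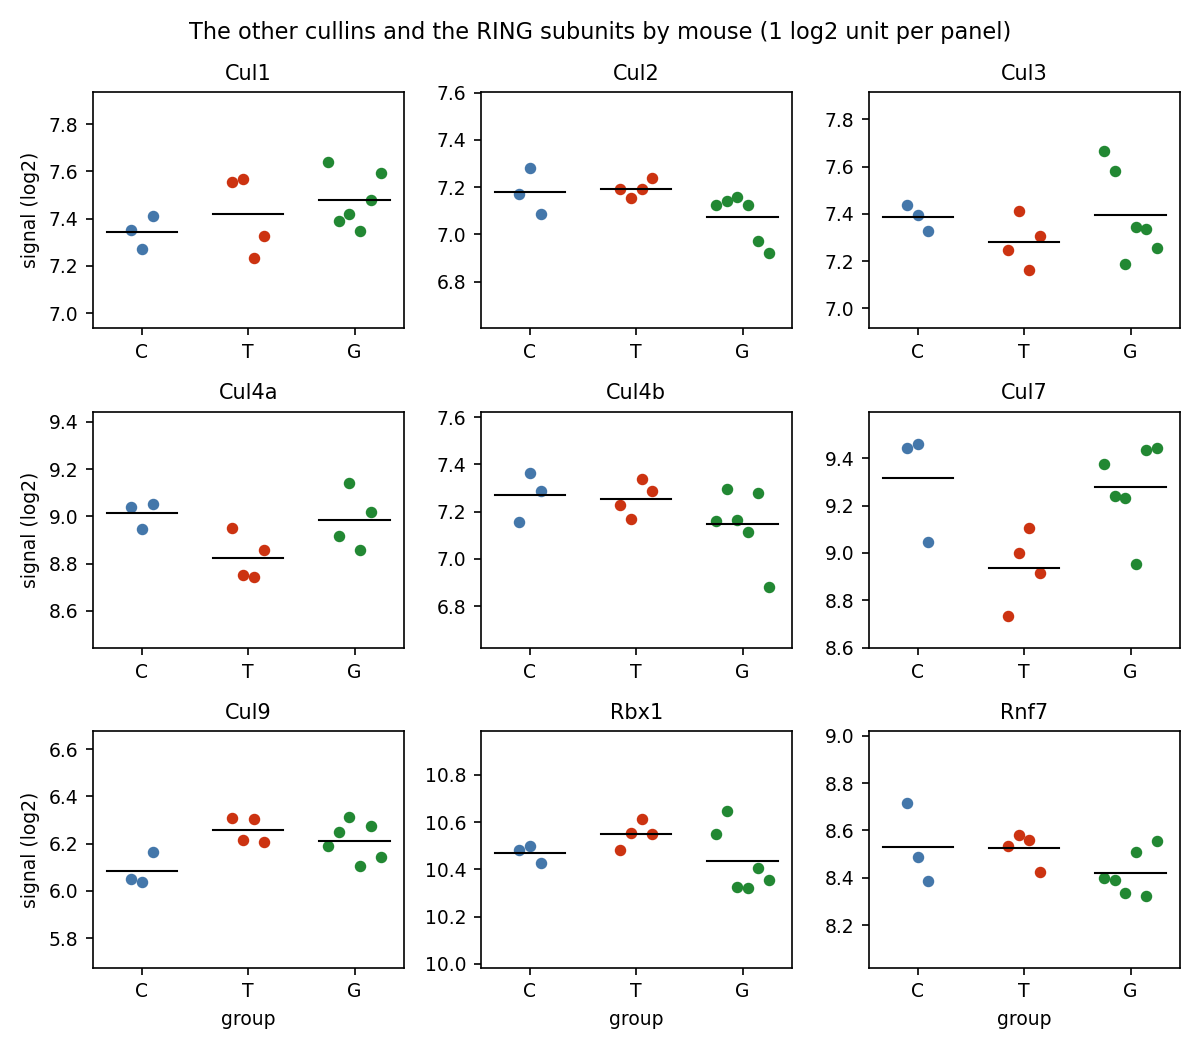
Log2 signal of the 9 other genes in each mouse of groups C, T and G. Points are mice, horizontal lines are group means, and every panel spans 1 log2 unit. Cul7 shows the lowest mean in group T. Cul9, below background on all arrays of C, is the only gene whose readings do not overlap between C and T. Cul4a has 4 points in group G because 2 spots were marked as outliers.

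The scaling matters for the T against C signs of the 5 members that were negative with quantile normalization. With each array scaled to its median in place of quantile normalization, the median of all genes moved by 0.12, and Cul7 came to 0.52, Cul4a to 0.67, Cul3 to 0.42 and Cul4b to 0.44. Rbx1 at 1.03 (adjusted p = 0.0356) and Rnf7 at 0.78 (adjusted p = 0.0394) then passed the limma test. They were among 2876 of 22032 genes that passed between T and C under that scaling. Quantile normalization equalises the spread of signals between arrays and median scaling does not. Cul5 was 0.56 under median scaling, 0.44 above the shift of all genes. For G against T no sign of Cul5, Cul2, Cul3, Cul4a, Cul4b, Cul7, Rbx1 or Rnf7 turned under any of the 32 alternatives. Those that change only the test, or leave out a mouse of group C, cannot turn such a sign.

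The other genes of the cullin ligases were taken from 9 lists with 166 genes on the array. Between T and C, 1 of 166 passed the limma test, a share of 0.602% beside 2.37% of all genes, and 29 had an unadjusted p under 0.05, beside 20.2% of all genes. Between G and T 0 passed (0.132% of all genes), with 18 at an unadjusted p under 0.05 (10.8% of all genes), and between G and C 0 passed (0.427%), with 21 (13.3%). The difference between T and C was positive for 110 of 166 genes, with a median of 0.0683, beside 0.0053 over all genes. Over the 10503 genes well above background on all arrays of at least 1 group, the median was 0.0326. For G against T the difference was positive for 59 of 166, with a median of -0.0375, beside -0.0084 over all genes and -0.0229 over those 10503. The 2 comparisons share the mice of group T.

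The gene that passed was Spsb2, a SOCS box receptor of CUL5 ligases known for binding inducible nitric oxide synthase. Its log2 level was 10.49, 10.40 and 10.52 in group C and 10.14, 10.14, 10.10 and 10.08 in group T, so that it fell without overlap. In group G it ran from 10.05 to 10.41, with mouse 3 inside the range of group C. The difference was -0.36 for T against C (SE 0.08, limma adjusted p = 0.0329), 0.10 for G against T (adjusted p = 0.628) and -0.26 for G against C (adjusted p = 0.136). The call was lost under 14 of 32 alternatives, among them the removal of any mouse of group C (adjusted p 0.107, 0.0677 and 0.0684 without mice 1, 2 and 3) and of mice 2, 3 or 4 of group T (0.067, 0.0896 and 0.0879), and the sign turned under median scaling, at 0.62 (adjusted p = 0.23).

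The lists of substrate receptors held 1 call between T and C. Of the 37 SOCS box receptors of CUL5 ligases, Spsb2 alone passed, which is 2.70% of the list beside 2.37% of all genes. Of these 37, 6 had an unadjusted p under 0.05, beside 20.2% of all genes, and the median difference was 0.016. None passed among 11 VHL box receptors of CUL2 ligases (median 0.0425), 35 F box receptors of CUL1 ligases (median 0.0643), 29 BTB receptors of CUL3 ligases (median 0.0965), 21 DCAF receptors of CUL4 ligases (median 0.0815) or the 2 partners of CUL7 (median -0.0399). The numbers at an unadjusted p under 0.05 were 3, 8, 4, 4 and 0 in that order, beside the same 20.2% of all genes. For G against T, 0 of the 37 SOCS box receptors passed and 4 had an unadjusted p under 0.05, beside 10.8% of all genes.

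On the 13 mice with quantile normalization the machinery that switches the ligases gave no call between T and C, beside 2.37% of all genes. Median scaling called Nedd8, Ube2m, Dcun1d1, Gps1 and Cops6 and the adaptors Tceb1, Tceb2 and Ddb1. Under that scaling 2876 of all 22032 genes were called. Of 17 neddylation enzymes and regulators 0 passed between T and C, with 3 at an unadjusted p under 0.05. Of the 9 subunits of the COP9 signalosome 0 passed, with 0 at an unadjusted p under 0.05. The share of all genes at an unadjusted p under 0.05 was 20.2%. Nedd8, the modifier itself, differed by -0.05 (SE 0.08), Cand1 by -0.16 (SE 0.11), and Cops5, the subunit that cuts NEDD8 off, by -0.10 (SE 0.05). Arih2, a RING-between-RING ligase that works with neddylated CUL5, differed by 0.13 (SE 0.11). Their adjusted p-values by limma were between 0.357 and 0.763.

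Among the 5 adaptors, elongin C and elongin B, which link CUL5 to its receptors, are listed as Tceb1 and Tceb2. Tceb1 had 8.82, 8.92 and 8.79 in group C and 8.96, 8.87, 9.01 and 8.95 in group T, a difference of 0.11 (SE 0.07, limma adjusted p = 0.428). Tceb2 had 11.20, 11.28 and 11.12 in group C and 11.16, 11.49, 11.35 and 11.44 in group T, a difference of 0.16 (SE 0.09, adjusted p = 0.352). Both sets of mice overlapped. Skp1a, the adaptor of CUL1, differed by -0.12 (adjusted p = 0.319), and Ddb1, the adaptor of CUL4, by 0.15 (adjusted p = 0.431).

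Genes with a pattern like that of Cul5 were ranked by Pearson's r over the 13 mice. The 7945 genes compared were well above background on all arrays and had a value in every mouse. The 5 highest were C330019G07Rik (r = 0.90), Ppig (r = 0.89), Nipa1 (r = 0.89), Trim8 (r = 0.89) and Polr2h (r = 0.88). After each group's mean was subtracted, r was 0.78, 0.57, 0.69, 0.39 and 0.64 in that order. In mice 1 and 2 of group C the Cul5 spot itself was not well above background. The points share arrays and normalization, so these values are a description. Within the family, r with Cul5 was 0.33 for Rbx1 (0.325 before rounding), 0.30 for Cul1, 0.12 for Cul4b, 0.11 for Cul2, -0.15 for Cul3, -0.26 for Rnf7 and -0.55 for Cul7. After each group's mean was subtracted, these became 0.16, 0.27, 0.44, 0.18, 0.27, -0.73 and -0.01 in that order.

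None of the 4 nearest genes of Cul5 on chromosome 9, a pair on either side, was called between T and C. Acat1, a mitochondrial enzyme of ketone body metabolism, differed by -0.53 between T and C (SE 0.21, limma adjusted p = 0.185), and Npat, a coactivator of histone genes, by -0.24 (SE 0.12, adjusted p = 0.312). On the other side, Rab39 was well above background on 0 of 15 arrays, and Slc35f2 differed by -0.17 (SE 0.23, adjusted p = 0.745).

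Markers of cell types were measured beside these values. The 6 hepatocyte markers had a mean log2 level of 16.133 to 16.279 in group C, 16.048 to 16.232 in group T and 16.023 to 16.245 in group G, and 1 of 6 was called between T and C. That marker was Ttr, at -1.004 (limma adjusted p = 0.00425), while Apoa1 was at 0.55 (adjusted p = 0.0657), so the mean averages opposite differences. The 4 markers of DEN tumours ran from 6.134 to 6.364 in group C, 7.897 to 9.324 in group T and 7.040 to 9.409 in group G, and 3 of 4 were called between T and C (Afp, Tff3 and Gpc3). The mean of 4 lymphocyte markers (Cd3e, Cd8a, Ms4a1 and Cd79a) ran from 6.476 to 6.564 in group C, 6.663 to 6.820 in group T and 6.552 to 6.770 in group G, with 0 of 4 called. Of these, Cd3e was well above background on all 15 arrays, Cd79a on 5, and Cd8a and Ms4a1 on 1 each. The 3 erythroid markers ran from 10.999 to 12.050 in group C, 12.277 to 12.575 in group T and 11.453 to 13.212 in group G, with 0 of 3 called. Of the 5 markers of Kupffer cells and macrophages 1 was called (Emr1, at 0.31, limma adjusted p = 0.0267), while Cd68 and Clec4f were at -0.25 and -0.06. The mean of the 5 ran from 7.564 to 7.918 in group C, 7.825 to 8.062 in group T and 7.734 to 8.205 in group G. The 4 cholangiocyte markers ran from 6.376 to 6.580 in group C, 6.223 to 6.404 in group T and 6.186 to 6.433 in group G, with 0 of 4 called. The stellate cell mean ran from 6.574 to 6.975, 6.523 to 6.633 and 6.526 to 7.240 in groups C, T and G, and the endothelial mean from 8.379 to 8.778, 8.338 to 8.753 and 8.574 to 8.742, with 0 of 4 called in either list. Of 4 proliferation markers 0 were called, and 2 (Top2a and Cdk1) were not well above background on any array. By group medians, the lymphocyte, macrophage, DEN tumour and proliferation means all ran C below G below T, as Cul5 did. None of the 4 proliferation markers had that order in its own group means. Ccnb1 differed by -0.19 between T and C, and Mki67 had means of 6.55 in C, 6.60 in T and 6.71 in G. The other lists had other orders. The part of any of these cell types in the Cul5 values was not tested.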

How the data were processed

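Total liver RNA was labelled with Cy3 and hybridised to Agilent single-colour arrays. Per array, the authors deposited spot and local background intensity values from Feature Extraction 10.7.3.1 (mm9 positions), not normalized between arrays, with other flags for spots that are well above background or outliers. The authors' deposited series table holds log2 values after background correction and quantile normalization, and it was used as an alternative.

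From the deposited intensity, normexp with an offset of 50, log2 and quantile normalization over the 59305 spots that are not controls were computed. The 3671 control spots and the outlier spots (218 to 3692 per array) were left out, and no spot was saturated. Probes were centred and averaged per gene symbol, with 29522 probes for 22032 symbols, and 26159 probes without a usable symbol were not used. A pair of arrays of the same RNA code was averaged when the SD of its differences relative to the next closest pair was below 0.7, which held in group C (ratio 0.5005) and group T (ratio 0.608). Groups were compared with limma 3.58.1 (lmFit and eBayes) in R 4.3.3 with the package data.table (version 1.17.8), with Benjamini-Hochberg adjustment over all genes. The script was tested on simulated data. The RNA samples are called mice, but the labels do not state that each came from its own animal, so p-values measure the spread between these samples, which may be technical. The small number of mice limits the precision. The labels state no pairing of the mice by replicate number, and the main comparisons used none.

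All 10 family genes are named, with 8 genes of the pathway whatever their values, genes of the lists that passed the test, the 5 genes most like Cul5 and its 4 neighbours. The members and lists were chosen with earlier results of these data known. Alternatives covered the background correction, normalization, dim probes, probe averaging, slide, test and each mouse. A marker gene of the lists is not reported here, and its list's mean was computed without it.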

Additional observations from a re-analysis of the deposited data

How the results depend on the processing

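The results were recomputed under 32 alternatives, of which array 3 alone and array 4 alone for mouse 3 of group C were chosen after seeing the data. Cul5 differed between T and C by 0.56 with median scaling, 0.94 with the processed signal, 0.28 with cyclic loess, 0.61 with a normexp offset of 16 and 0.54 without background correction. It differed between G and T by -0.37 with the processed signal and -0.25 with an offset of 16, and between G and C by 0.37, 0.58, 0.12, 0.36 and 0.32 under the 5 settings in the order above. Its direction was the same under all 32, several of which could not change its differences. The median of all genes shifted between T and C by 0.12 with median scaling and by -0.40 with the processed signal, relative to which Cul5 was at 0.44 and 1.35. Median scaling called 2 of the 9 other members between T and C and 40 of the pathway genes, and turned Spsb2 to 0.62. Members were called under no other alternative in any comparison. The pathway genes called between T and C were 0 with the processed signal, cyclic loess, an offset of 16, eBayes with trend and robust, and both forms of the methods' t-test, 10 with all 15 arrays as separate mice, and 2 with array 3 alone. Without 1 mouse at a time they were 0 to 1 between T and C and 0 to 1 between G and C, and with 15 arrays they were 3 between G and C. Over all genes, calls between T and C ran from 0 with the methods' t-test to 2876 with median scaling, and without 1 mouse from 95 (without mouse 3 of group T) to 746 (without mouse 1 of group T). Between G and T they ran from 1 to 268 and between G and C from 0 to 338. The cause was not tested.

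The deviations of same-numbered mice of different groups from their group means had correlations of -0.314 to 0.254. Mice with different numbers were not compared in this way, so these values cannot settle whether the numbers pair the mice. With the replicate number as a block, Cul5 differed by 0.41 between T and C and by -0.16 between G and T, the pathway genes called were 2 between T and C and 1 between G and C, and all genes called were 278 between T and C, 6 between G and T and 50 between G and C. Signal over background limits Cul5 in mice 1 and 2 of group C and Cul9 in all of group C.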
